A study of Homo sapiens with 12 samples.

Results

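The heat shock genes described here encode cytosolic chaperones and the co-chaperones that work with them, and they were followed in H1975 cells, a human lung adenocarcinoma line with a mutant EGFR. The list named 10 genes, namely DNAJA1, DNAJB1, HSPA8, HSPH1, HSP90AA1, HSP90AB1, HSPD1, HSPE1, BAG3 and HSPB1. A gene was taken when a row of the expression table carried its symbol alone, and the row with the highest mean was used. This gave 7 of the 10 genes, of 22395 genes named in the table, and all 7 passed the filter on low values (a mean of at least 5 on the log2 scale), as did 5820 genes in all. HSPA8, HSPD1 and HSPE1 had only rows whose annotation names further genes, so they are described apart, and HSPD1 and HSPE1 encode chaperonins of the mitochondrion rather than of the cytosol.

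Gene expression had been read on 12 Affymetrix Human Gene 2.1 ST arrays, whose probes lie along the exons of each gene. The cells were held in 1 µM erlotinib, an EGFR kinase inhibitor, plus 3 µM quinacrine, an acridine antimalarial, for 6, 12, 24 or 48 h (4 arrays). Other cells were held in 3 µM quinacrine for 6, 12 or 24 h (3 arrays) or in 1 µM erlotinib for 6, 12, 24 or 48 h (4 arrays), and 1 untreated array had no time in its label. Every condition had a single array and no label names separate cultures, so n counts arrays of different times and each p-value measures only the spread between these arrays. The design text and treatment protocol also name a 5 µM quinacrine dose, whereas the labels of all 7 quinacrine arrays give 3 µM, which is used here. All values are log2 expression levels, so a difference of 1 is a 2-fold change.

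Heat shock genes are switched on by HSF1, a transcription factor that binds inverted repeats of the unit nGAAn, the heat shock element, when unfolded protein builds up. HSP70 proteins bind exposed stretches of unfolded chains in cycles of ATP use, J-domain proteins such as DNAJB1 and DNAJA1 bring them substrates and start ATP hydrolysis, and nucleotide exchange factors such as HSPH1 and BAG3 let the substrate go. HSP90 finishes the folding of many kinases, mutant EGFR among them, and tumour cells are known for high levels of these proteins. The title of the study names the histone chaperone FACT and NF-kappaB, and no source used here states a question about heat shock genes.

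The heat shock elements were looked for in RefSeq promoter windows (GRCh38.p14, 250 bases before to 50 after a start), which held all 10 listed genes in 16 windows. A motif of 3 units (GAA, then TTC, then GAA, with 2 free bases between units, on either strand) was present in 5 of these windows (31.2%), those of DNAJA1, HSP90AA1, HSP90AB1, HSPA8 and HSPD1, and in 172 of all 35116 windows (0.49%). The motif of 2 units, GAANNTTC, reads the same on both strands and lies within the longer one. It was present in 8 of the 16 windows (50.0%) and in 2377 of all windows (6.77%). The windows of BAG3, HSPH1 and HSPE1 had no match. A match is a run of letters, not a shown binding site. The stretches below are shown because they belong to the genes that the results turn on and to members that were not called, with the matched letters in capitals and 10 bases on each side.
DNAJB1, 77 bases before the start: gggcggggcgGAAGGTTCtggagggggc
DNAJB1, 47 bases before the start: gcgggctctgGAAGCTTCcgccggacgg
HSPA1A, 106 bases before the start: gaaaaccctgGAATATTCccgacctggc
HSPA1B, 105 bases before the start: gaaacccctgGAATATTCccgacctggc
HSP90AA1, 88 bases before the start: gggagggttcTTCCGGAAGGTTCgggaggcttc
HSP90AB1, 165 bases before the start: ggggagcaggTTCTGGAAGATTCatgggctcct
HSP90AB1, 112 bases before the start: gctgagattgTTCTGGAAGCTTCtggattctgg
DNAJA1, 3 bases after the start: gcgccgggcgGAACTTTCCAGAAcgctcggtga
HSPB1, 182 bases before the start: cttaacgagaGAAGGTTCcagatgaggg
The windows of these stretches lie at chr19:14518348-14518647 on the minus strand for DNAJB1, chr6:31815293-31815592 on the plus strand for HSPA1A and chr6:31827488-31827787 on the plus strand for HSPA1B. Those of HSP90AA1 and HSP90AB1 lie at chr14:102086995-102087294 on the minus strand and chr6:44247693-44247992 on the plus strand. Those of DNAJA1 and HSPB1 lie at chr9:33025023-33025322 and chr7:76302423-76302722, both on the plus strand. A further DNAJB1 window, chr19:14517888-14518187 on the minus strand, holds a match of 2 units 1 base after its start.

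The combination 6 h array stood apart from the others. Its median correlation with the other arrays was 0.955, against 0.968 (erlotinib 12 h) to 0.981 elsewhere, and its median over the tested genes was 6.18, against 6.38 to 6.56 on the other arrays. The interquartile range of all rows was 2.04 there, 2.26 on the erlotinib 12 h array and 2.38 to 2.88 on the rest, and 1 alternative leaves out both of these arrays. Markers of the labelled cell type were present, with 7 of 9 lung epithelial markers at a mean of at least 5, KRT8 and KRT18 not among them. Their summed level was 60.4 to 65.5 on arrays with quinacrine and 61.0 to 63.6 on arrays without. Of 14 markers of other cells 12 had a row and 3 (CD68, HLA-DRA and CD74) had a mean of at least 5, with sums of 34.1 to 36.0 with quinacrine and 33.6 to 37.8 without.

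DNAJB1 and HSP90AA1 fell where quinacrine was present, in the comparison of all 12 arrays, while the other 5 genes did not pass the test. DNAJB1 encodes the J-domain protein that works with HSP70 in the cytosol and the nucleus, and it is among the genes most strongly induced by heat. With both compounds it stood at 6.26, 6.90, 6.84 and 6.76 after 6, 12, 24 and 48 h, and with quinacrine alone at 6.46, 6.77 and 6.97 after 6, 12 and 24 h. With erlotinib it stood at 7.32, 7.33, 7.30 and 7.38, and in untreated cells at 7.36. All 7 quinacrine arrays lay below all 5 arrays without quinacrine, a pattern shown by 4.48% of tested genes. The means were 6.71 ± 0.26 (SD, n = 7) with quinacrine and 7.34 ± 0.03 (SD, n = 5) without. In a fit with a term for erlotinib, DNAJB1 was 1.56-fold lower (log2 difference -0.64, SE 0.12, limma adjusted p = 0.00815). That difference averages combination against erlotinib and quinacrine against the lone untreated array, with more weight on the first. It is therefore not independent of those comparisons, which are given below. In RNA from a whole culture, fewer cells with a transcript and less of it in each cell cannot be told apart.

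HSP90AA1 encodes the stress-inducible cytosolic form of HSP90. Its levels were 5.99, 6.13, 6.03 and 5.97 with both compounds and 5.94, 6.25 and 6.00 with quinacrine alone. With erlotinib they were 6.31, 6.40, 6.45 and 6.19, and without treatment 6.45. The groups met at 1 point, since quinacrine alone at 12 h (6.25) lay above erlotinib at 48 h (6.19). HSP90AA1 was 1.26-fold lower with quinacrine than without (log2 difference -0.33, SE 0.08, limma adjusted p = 0.0265). This call was lost when the erlotinib 6, 12 or 24 h array, the combination 24 h array or the untreated array was left out (adjusted p 0.0518 to 0.115), and with each array centred on its median (0.0689).

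In this comparison of quinacrine present against absent, 2 of 7 heat shock genes fell and none rose, beside 9.76% of all tested genes that passed in either direction and 5.88% that passed as lower. The median log2 difference was -0.129 over the 7 genes and -0.014 over all 5820, and 6 of 7 were negative, against 52.8% of all. The paralog HSP90AB1, the steadily expressed form of cytosolic HSP90, differed by -0.07 (SE 0.10, 95% interval -0.28 to 0.14). DNAJA1, a J-domain protein of another class that also partners HSP70, differed by -0.12 (SE 0.08, adjusted p = 0.401). Neither passed.

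The nucleotide exchange factors did not pass either. BAG3, which links HSP70 to autophagy and to small heat shock proteins, stood at 6.65, 6.99, 6.99 and 7.02 with both compounds, at 7.08, 6.75 and 6.99 with quinacrine, at 7.05, 6.95, 7.35 and 7.28 with erlotinib and at 7.18 in untreated cells. The groups overlapped, with a difference of -0.24 (SE 0.10, adjusted p = 0.162). HSPH1, the HSP110 exchange factor, stood at 8.71, 8.55, 8.43 and 8.34 with both compounds, at 8.62, 8.50 and 8.54 with quinacrine, at 8.71, 8.65, 8.46 and 8.76 with erlotinib and at 8.66 without treatment. Its groups overlapped too (difference -0.13, SE 0.09, adjusted p = 0.375), with the lowest value on the combination 48 h array.

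HSPB1, a small heat shock protein that holds unfolded chains without ATP, had the smallest range of the 7 genes. It ranged over 0.20 log2 units on the 12 arrays, against a median range of 0.74 for tested genes, and its difference with quinacrine was 0.05 (SE 0.07, adjusted p = 0.67). Its mean of 12.23 lay near the top of the values in the table, and whether the scale limits its spread there was not tested. HSPH1 had the next smallest range, 0.42. DNAJB1 had the largest range, 1.12, and BAG3 the next, 0.70.

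**Figure D1:**
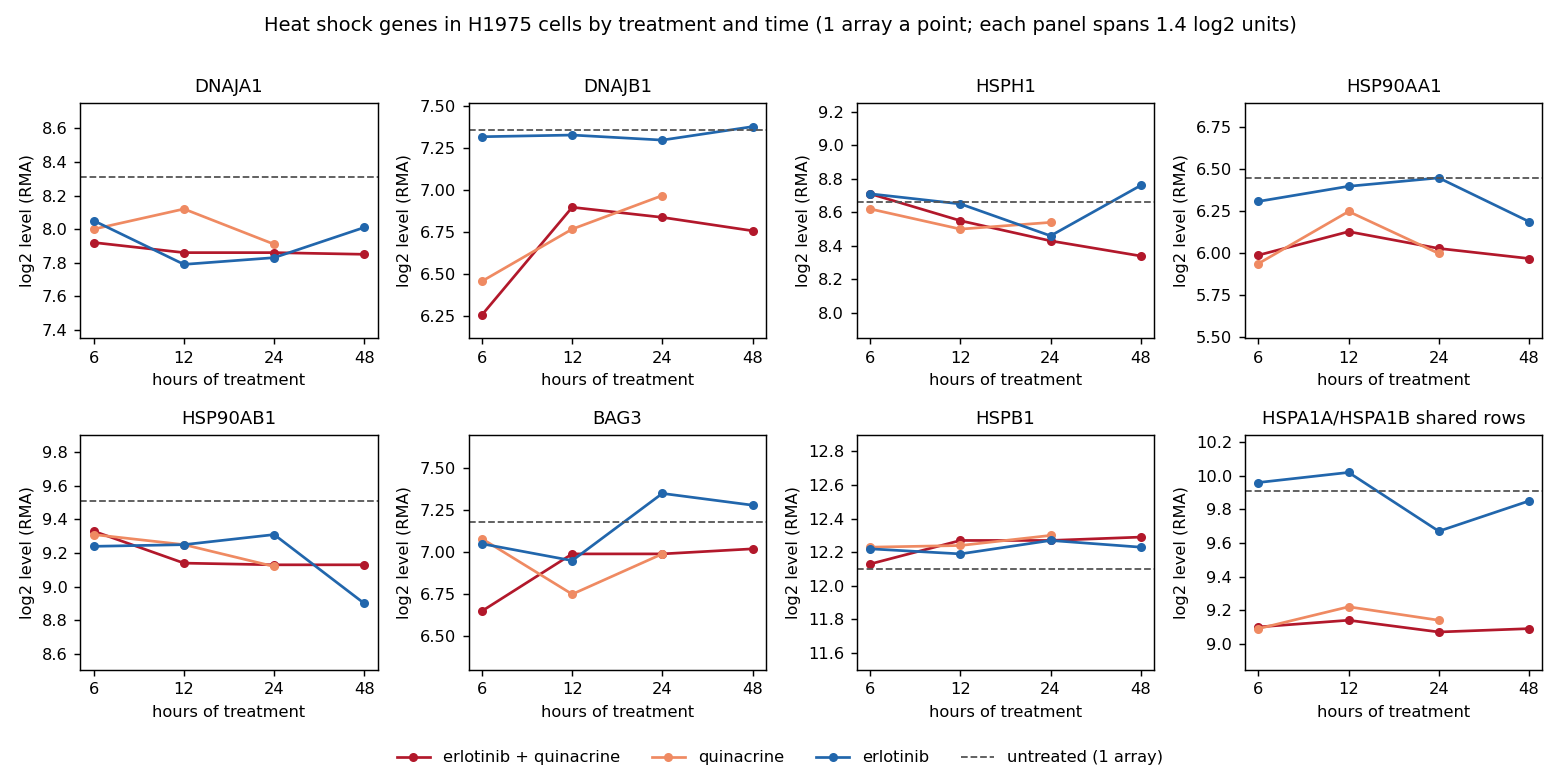
Log2 expression level against hours of treatment for the 7 heat shock genes and for the median of the 8 distinct rows shared by HSPA1A and HSPA1B, 1 array a point, with the untreated array as a dashed line; every panel spans 1.4 log2 units. DNAJB1 and the shared rows lay lower on all 7 quinacrine arrays than on the other 5, and HSPB1 spanned 0.20.

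Matching arrays by time asked what quinacrine added to erlotinib. DNAJB1 at 6, 12, 24 and 48 h was lower with the combination than with erlotinib, by differences of -1.06, -0.43, -0.46 and -0.62. The 6 h value fell on the array that stands apart, where the median of all tested genes was 0.35 below that of the erlotinib 6 h array. Over the 4 times DNAJB1 was 1.56-fold lower (log2 difference -0.64, SE 0.13, limma adjusted p = 0.0337). Without the combination 6 h array the difference was -0.55 and still passed (adjusted p = 0.0411). It missed the threshold in 14 of 24 alternative fits (adjusted p 0.00669 to 0.144 over all 24), among them those without the combination 12, 24 or 48 h, the erlotinib 12, 24 or 48 h or any quinacrine array. At matched times, leaving out either 48 h array gives the same fit as the 6, 12 and 24 h arrays only. These are therefore not separate alternatives in this or the other counts at matched times.

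DNAJB1 was the only 1 of the 7 heat shock genes called in that comparison, in which 3.64% of tested genes passed and 2.22% passed as lower. HSP90AA1 differed by -0.32, -0.27, -0.42 and -0.22 at 6, 12, 24 and 48 h, with a fitted difference of -0.31 (SE 0.09) that did not pass over all genes (adjusted p = 0.114). At 6 h that difference was no larger than the shift of the array. BAG3 differed by -0.24 (SE 0.12, adjusted p = 0.301) and HSPH1 by -0.14 (SE 0.11, adjusted p = 0.509), and the other 3 lay between -0.05 and 0.01. DNAJB1 and HSP90AA1 were lower at all 4 matched times, 2 of 7 genes against 14.3% of tested genes.

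Quinacrine alone against erlotinib gave values of like size on fewer arrays. DNAJB1 differed by -0.86, -0.56 and -0.33 at 6, 12 and 24 h, with a fitted difference over the 11 treated arrays of -0.58 (SE 0.14, limma adjusted p = 0.083), and HSP90AA1 differed by -0.37, -0.15 and -0.45, with a fitted difference of -0.31 (SE 0.10, adjusted p = 0.171). None of the 7 genes passed, where 1.13% of tested genes did and 0.619% passed as lower, and 2 of the 7 had an unadjusted p under 0.05 in limma. DNAJB1 did pass in 5 alternatives, among them without the combination 6 h array (adjusted p = 0.0345) and with the arrays centred on their medians (adjusted p = 0.0159). DNAJB1 and HSP90AA1 were lower at all 3 matched times, against 20.0% of tested genes.

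Between the combination and quinacrine alone the heat shock genes showed no difference that passed. DNAJB1 differed by -0.06 (95% interval -0.38 to 0.26) and DNAJA1 by -0.15 (95% interval -0.40 to 0.10), and the other 5 lay between -0.07 and 0.01. No member had an unadjusted p under 0.05, and 0.0% of tested genes passed in limma, with 47 of 5820 at an unadjusted p under 0.05. Leaving out both the combination 6 h array and the erlotinib 12 h array gave a DNAJB1 difference of 0.05.

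**Figure D2:**
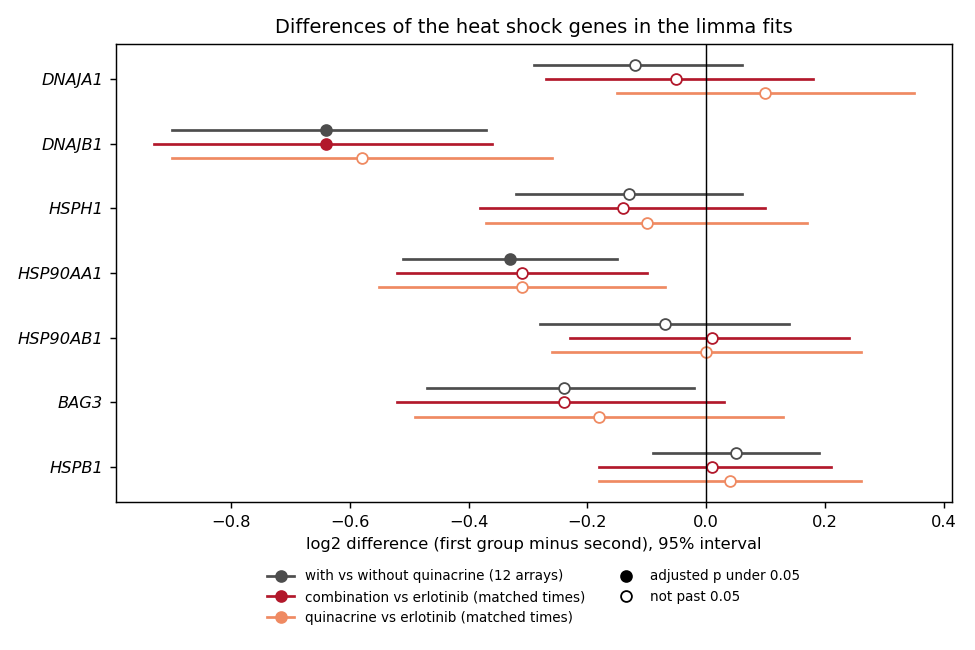
Log2 differences of the 7 heat shock genes with 95% intervals from limma, for quinacrine present minus absent (12 arrays), combination minus erlotinib and quinacrine minus erlotinib (both matched by time). Filled points passed at an adjusted p under 0.05, namely DNAJB1 in 2 comparisons and HSP90AA1 in 1, and open points did not pass.

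Against the lone untreated array few genes of any kind passed. That array was assumed to vary like the treated ones. With the combination DNAJB1 differed by -0.67 (SE 0.24, limma adjusted p = 0.355), HSP90AA1 by -0.42 (adjusted p = 0.38) and DNAJA1 by -0.44 (adjusted p = 0.33), with 0 of 7 genes called beside 0.0515% of tested genes. With quinacrine DNAJB1 differed by -0.63 (adjusted p = 0.417) and HSP90AA1 by -0.39 (adjusted p = 0.452), again with 0 of 7 called beside 0.0344%. The unadjusted p was under 0.05 for 3 members with the combination and for 2 with quinacrine. The 2 comparisons share the untreated array, so their values are not independent.

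Erlotinib alone left DNAJB1 within 0.06 of the untreated array at every time. Of the 7 genes 0 passed, as did 0.0% of tested genes in limma, and 1 member and 144 of the 5820 genes had an unadjusted p under 0.05. DNAJA1 was at 7.92, 7.86, 7.86 and 7.85 with both compounds, at 8.0, 8.12 and 7.91 with quinacrine and at 8.05, 7.79, 7.83 and 8.01 with erlotinib, against 8.31 in untreated cells. HSP90AB1 was at 9.33, 9.14, 9.13 and 9.13 with both compounds, at 9.31, 9.25 and 9.12 with quinacrine and at 9.24, 9.25, 9.31 and 8.90 with erlotinib, against 9.51 in untreated cells. All 11 treated arrays thus lay below the untreated array for these 2 of 7 genes, as they did for 7.9% of tested genes. With erlotinib the differences were -0.39 (SE 0.14) for DNAJA1 and -0.34 (SE 0.17) for HSP90AB1, both with a limma adjusted p = 0.999. HSPB1 was the reverse, at 12.13 to 12.29 with both compounds, 12.23 to 12.30 with quinacrine and 12.19 to 12.27 with erlotinib, against 12.10 in untreated cells. All 11 treated arrays lay above the untreated one for 7.3% of tested genes.

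No heat shock gene had a trend with time that passed, where 2.3% of tested genes did. Per doubling of time the slope was 0.11 for DNAJB1 (SE 0.05, limma adjusted p = 0.247), 0.08 for BAG3 (SE 0.05, adjusted p = 0.303) and -0.08 for HSP90AB1 (SE 0.04, adjusted p = 0.23). None of the 7 had an unadjusted p under 0.05. In the fit of all rows the shared row of HSPA8 had a slope of -0.14 (SE 0.04, limma unadjusted p = 0.00374, adjusted p = 0.102). The slope was -0.10 for the HSPD1 row (SE 0.04, unadjusted p = 0.0356, adjusted p = 0.213) and -0.04 for the HSPE1 row (adjusted p = 0.623). The DNAJB1 slope was 0.13 steeper with the combination than with erlotinib (95% interval -0.12 to 0.38, adjusted p = 0.607), 0 of 7 genes passed that test beside 0.103% of tested genes, and no member had an unadjusted p under 0.05. Leaving out 1 array moved that difference between -0.09 and 0.28. Of the markers of other cells HLA-DRA rose with time (slope 0.38, SE 0.07, adjusted p = 0.0243).

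The inducible HSP70 genes HSPA1A and HSPA1B encode nearly the same protein, and their 10 rows, 8 of them with distinct values, name both genes, so the copies cannot be told apart. These rows were examined after earlier results of the data were known. Their median stood at 9.10, 9.14, 9.07 and 9.09 with both compounds and at 9.09, 9.22 and 9.14 with quinacrine alone. With erlotinib it stood at 9.96, 10.02, 9.67 and 9.85, and in untreated cells at 9.91. Within each of the 8 rows every quinacrine array lay below every array without it, as in 3.85% of all 8535 rows tested together. All 8 rows fell with quinacrine against without, by 1.64-fold to 1.75-fold (log2 differences -0.81 to -0.71, limma adjusted p from 0.000146 to 0.000287), beside 4.49% of rows called lower. The call held in all 18 alternative fits. Rows that share probes are repeated measures and not independent ones.

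At matched times the shared HSPA1A and HSPA1B rows differed by -0.80 to -0.70 between combination and erlotinib, and all 8 passed (limma adjusted p 0.0129 to 0.0155, beside 1.07% of rows lower). They differed by -0.79 to -0.68 between quinacrine and erlotinib, and all 8 passed (adjusted p 0.0195 to 0.0243, beside 0.539% of rows lower). The combination and quinacrine alone differed by -0.07 to 0.02, and erlotinib and untreated cells by -0.08 to -0.02, with 0 of 8 rows called in either (adjusted p of 1.0 and 0.999). Against untreated cells they differed by -0.88 to -0.75 with the combination and by -0.85 to -0.71 with quinacrine, with 0 of 8 rows called (adjusted p 0.0694 to 0.104 and 0.105 to 0.161) beside 0.0469% of rows lower in each. No trend with time passed (-0.06 to -0.01 per doubling, 0 of 8 rows, beside 0.176% of rows lower). The matched calls were lost in more alternatives than the pooled one. The pooled fit shares the combination and erlotinib arrays and has more residual degrees of freedom (9 against 5), so it is no independent check. All rows kept their call in 9 of 17 alternatives for the combination and in 5 of 17 for quinacrine (adjusted p up to 0.108 and 0.199), and both sets were lost with no filter on the mean. The combination's calls were lost without the erlotinib 12 or 48 h array or the combination 12, 24 or 48 h array. Those of quinacrine were lost, for some or all rows, without any array except erlotinib 6 h and combination 6 h.

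The rows of the 3 listed genes without a symbol of their own gave smaller differences than the rows of HSPA1A and HSPA1B, and none was called. The row named for HSPA8, the constitutive HSP70, and for 2 small nucleolar RNAs encoded in its introns stood at 11.09, 10.92, 10.74 and 10.73 with both compounds and at 11.14, 11.05 and 10.85 with quinacrine. It stood at 11.36, 11.48, 11.29 and 10.91 with erlotinib and at 11.32 in untreated cells, so the erlotinib 48 h array lay within the range of the quinacrine arrays. Its difference with quinacrine was -0.37 (SE 0.11, limma adjusted p = 0.0717), larger than the called difference of HSP90AA1 (-0.33). At matched times the HSPA8 row differed by -0.39 between combination and erlotinib (SE 0.10, limma adjusted p = 0.0966). Between quinacrine and erlotinib it differed by -0.33 (SE 0.11, adjusted p = 0.212). The row of HSPD1 and its pseudogene differed by -0.17 (SE 0.10, adjusted p = 0.319) and the row shared by HSPE1 and MOB4 by -0.09 (SE 0.10, adjusted p = 0.628). These encode the chaperonin of the mitochondrion and its lid, and neither row passed.

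**Figure D3:**
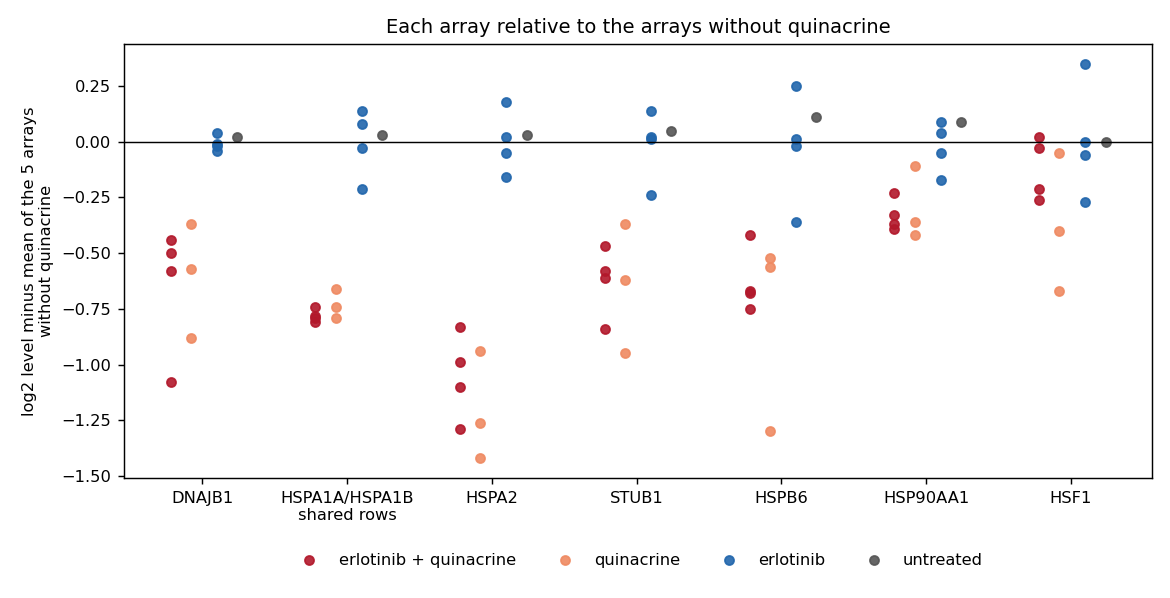
Log2 level of each array minus the mean of the 5 arrays without quinacrine, for DNAJB1, the median of the rows shared by HSPA1A and HSPA1B, HSPA2, STUB1, HSPB6, HSP90AA1 and HSF1; each point is 1 array. In the first 5 every quinacrine array lay below every other array, HSP90AA1 met at 1 point, and HSF1 overlapped.

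Among the other chaperones, each gene called for quinacrine present against absent was lower, in lists to be read beside the 5.88% of all tested genes called lower and the 4.48% whose groups did not overlap. Of 8 tested genes of the HSP70 and HSP110 list, HSPA2 and HSPA5 fell with quinacrine, 6 did not pass, and the list's median was -0.144. HSPA2, an HSP70 best known from spermatogenesis, was at 5.53, 5.64, 5.34 and 5.80 with both compounds and at 5.69, 5.21 and 5.37 with quinacrine. It was at 6.58, 6.65, 6.47 and 6.81 with erlotinib and at 6.66 in untreated cells, with no overlap. HSPA2 was 2.14-fold lower (log2 difference -1.10, SE 0.11, limma adjusted p = 0.000308). It also passed at matched times, for the combination against erlotinib (-1.05, SE 0.12, adjusted p = 0.00837) and for quinacrine against erlotinib (-1.14, SE 0.13, adjusted p = 0.00785). The first of these calls was lost without the erlotinib 24 h or combination 24 h array (adjusted p up to 0.0674), and the second without the erlotinib or quinacrine array of 12 or 24 h (up to 0.0931). HSPA9, the mitochondrial HSP70, differed by -0.10 (SE 0.07, adjusted p = 0.39). HSPA6, a strictly inducible HSP70, ranged from 2.28 to 3.46 and HSPA1L from 3.06 to 3.91, both below the filter and untested.

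Of 16 listed HSP90 family members and co-chaperones 8 were tested and 1 fell (5.88% of all tested genes did), and the list's median was -0.056. The gene that fell was STUB1, the ubiquitin ligase CHIP that tags the clients of HSP70 and HSP90. STUB1 stood at 6.43, 6.32, 6.06 and 6.29 with both compounds and at 6.53, 6.28 and 5.95 with quinacrine. It stood at 6.91, 7.04, 6.92 and 6.66 with erlotinib and at 6.95 in untreated cells, again without overlap, as in 4.48% of tested genes. Its difference was -0.63 (SE 0.11, limma adjusted p = 0.0066), and it held in all 23 alternatives. Against erlotinib the combination gave -0.61 (adjusted p = 0.0347), a call kept in 10 of 24 alternatives and, of the fits that leave out 1 array, only without the erlotinib 6 h or combination 6 h array (adjusted p up to 0.152 in the others). Besides the shared rows of HSPA1A and HSPA1B, HSPA2 and STUB1 were the only genes of these lists called at matched times. HSPB6, the only small heat shock protein besides HSPB1 that passed the filter, was at 6.28, 6.61, 6.36 and 6.35 with both compounds, at 6.51, 5.73 and 6.47 with quinacrine, at 6.67, 7.01, 7.28 and 7.04 with erlotinib and at 7.14 in untreated cells. HSPB6 fell by 0.68 on the log2 scale (SE 0.15, limma adjusted p = 0.0175). It missed the threshold in 2 of 23 alternatives, among them that without the untreated array (adjusted p = 0.0958).

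Of 10 tested chaperones of the endoplasmic reticulum (14 listed) 3 fell with quinacrine, beside 5.88% of all tested genes, and the list's median was -0.047. With so few genes in a list, nothing particular to it is read from these counts. They were HSPA5, the HSP70 of that compartment (-0.39, SE 0.10, limma adjusted p = 0.0343), SDF2L1, its co-factor (-0.38, SE 0.09, adjusted p = 0.02), and PDIA4, a disulfide isomerase (-0.31, SE 0.09, adjusted p = 0.0466). Among 8 tested other heat-induced genes (20 listed) 1 fell, the heme oxygenase gene HMOX1 (-0.36, SE 0.10, adjusted p = 0.0422), and the median was 0.038. The calls of HSPA5, PDIA4 and HMOX1 were each lost in 11 to 13 of 23 alternatives (adjusted p up to 0.153, 0.149 and 0.181), among them median centring and leaving out the untreated array. SDF2L1 lost its call in 4 of 22 (up to 0.0726), among them the same 2. HSPA5 stands in this list and in that of the HSP70 family.

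No gene of the remaining lists passed in that comparison. Tested were 12 of 21 listed J-domain proteins (median 0.060) and 6 of 10 nucleotide exchange factors and co-factors (-0.165, all 6 negative). So were 10 of 15 subunits of TRiC and prefoldin (-0.004) and 10 of 11 mitochondrial chaperones and proteases (-0.125). Listed genes without a row of their own symbol or with a mean under 5 were not tested. The 23 tested proteasome subunits (31 listed) had a median of 0.039 and the 9 tested genes often used as internal standards (12 listed) 0.021. The lung epithelial markers and the markers of other cells had no call among 7 and 3 genes (medians -0.028 and -0.209). CD68 came nearest (-0.38, adjusted p = 0.0523), and its part in the heat shock results was not tested. Of 4 tested heat shock factors and regulators none passed (median -0.024). HSF1 was at 5.11, 5.16, 5.34 and 5.39 with both compounds, at 4.97, 4.70 and 5.32 with quinacrine, at 5.31, 5.10, 5.72 and 5.37 with erlotinib and at 5.37 in untreated cells, and its groups overlapped (difference -0.19, SE 0.13, adjusted p = 0.391). HSF2 had no row of its own symbol.

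**Figure D4:**
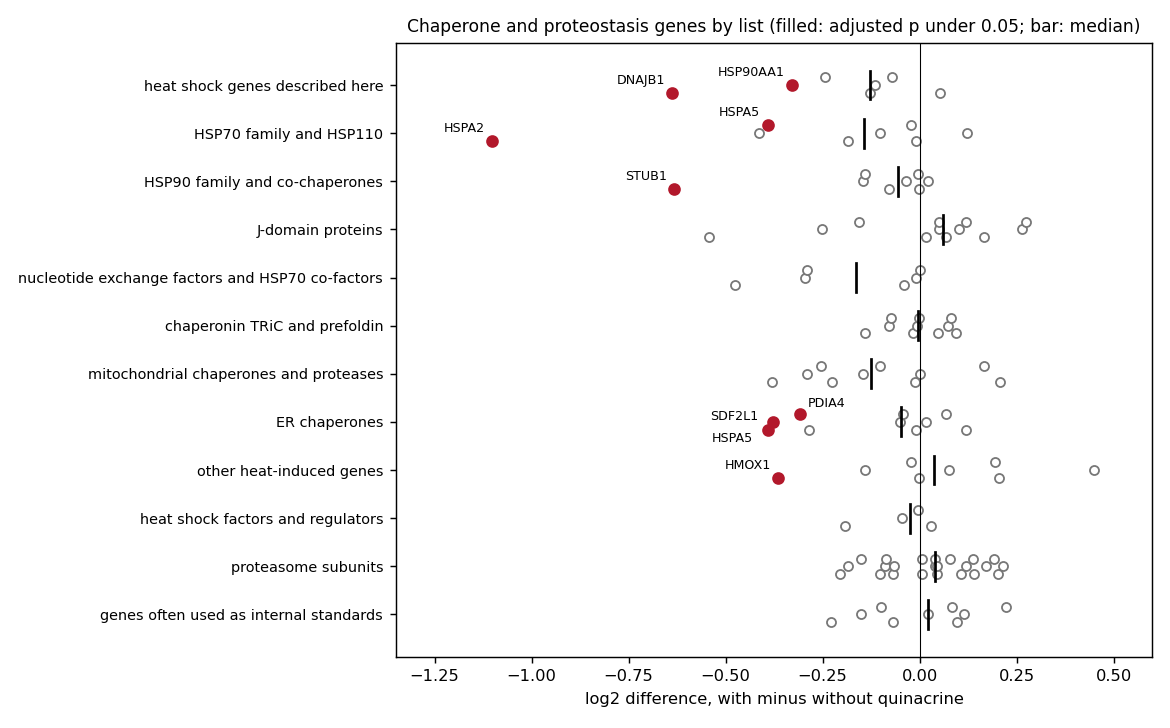
Log2 difference of quinacrine present minus absent for each tested gene of the 7 heat shock genes and of 11 chaperone, proteostasis and comparison lists; filled points passed at an adjusted p under 0.05 and bars are list medians. All labelled genes lay left of 0, and proteasome subunits and internal standards lay on both sides of it.

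Across the 12 arrays the heat shock genes did not move as 1 unit. DNAJB1 correlated with HSP90AA1 at r = 0.79 and with BAG3 at r = 0.68 (0.65 and 0.52 with each array centred on its median), whereas DNAJB1 and HSP90AB1 stood at -0.10 on both scales. DNAJA1 and HSP90AB1 correlated at 0.43 (0.72 centred). Centring also raised DNAJA1 with HSPH1 from 0.39 to 0.69, HSPH1 with HSP90AB1 from 0.08 to 0.61 and HSP90AA1 with HSP90AB1 from 0.38 to 0.62. Taking the same array medians from every gene can by itself raise r between genes of small range. No relation is read from these rises. The sign of HSPB1 turned with the scaling against HSPH1, from r = -0.66 as deposited to 0.48 centred. It turned likewise against HSP90AB1, DNAJA1 and HSP90AA1, and the other way against BAG3 (from 0.19 to -0.18). Against DNAJB1 it stayed negative (from -0.03 to -0.56). No relation is read from any pair with HSPB1. Per the series design text all arrays share 1 joint normalisation, and these values are descriptions.

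The tested genes whose levels followed the mean profile of the 7 heat shock genes most closely were MOCS2, LIAT1, UROS, KPNB1 and ARHGEF39, with r from 0.935 to 0.971 over 12 arrays. After median centring the profile of KPNB1, the nuclear import receptor importin beta, was at r = 0.966 and that of UROS, an enzyme of heme synthesis, at 0.913. Centring takes the same array medians (6.18 to 6.56) from each gene and from the profile. A gene of small range then shares that part with the profile, so a high r on this scale is no independent check. MOCS2 moved to 0.744, LIAT1 to 0.644 and ARHGEF39 to 0.523. KPNB1 lay between 9.69 and 9.83 on the quinacrine arrays and between 9.94 and 10.10 on the others, as deposited. With each array centred on its median the groups overlapped, at 3.19 to 3.54 with quinacrine and 3.39 to 3.64 without. The most opposed were IFNGR2, GOSR1 and SLU7, at r of -0.882, -0.882 and -0.871, and centring left them between -0.315 and -0.289. The mean profile itself ran from -0.166 on the combination 6 h array to 0.202 on the untreated array.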

How the data were processed

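The authors' deposited values are log2 expression levels on 1 scale for all 12 arrays. Per the series design text, the scans were put through RMA in Affymetrix Expression Console 1.30, which corrects background, equalises quantiles across arrays and takes log2, with an hg19 annotation. The values were used as deposited, and their interquartile range over all rows still differed between arrays (2.04 to 2.88). Of 53617 rows, 23871 had 1 gene symbol in the platform annotation, 1842 several and 27904 none, and 22569 matched current RefSeq entries (90 symbols updated). A gene's row with the highest mean was used, and 5820 genes with a mean of at least 5 were tested. No array pair held identical values.

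Tests used limma 3.58.1 (lmFit, eBayes; R 4.3.3); p-values were adjusted over all tested genes by the Benjamini-Hochberg method, with 0.05 as threshold. Treated arms were compared in a fit of 11 arrays with arm and time as factors (5 residual degrees of freedom). Each arm was compared with the untreated array in a fit of group means (8 degrees of freedom). Quinacrine present against absent used all 12 arrays with a term for erlotinib (9 degrees of freedom). Its estimate joins combination against erlotinib, with more weight, and quinacrine against the untreated array, so these fits overlap. Trends used log2 hours, with 7 degrees of freedom, or 5 with a slope for each arm. Rows naming several genes were tested only in fits of all 8535 rows with a mean of at least 5. The fits were also run on simulated data with independent noise for each gene and no shift between arrays. Such data cannot show how the fits act on arrays that differ as these do.

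The genes and the lists of chaperones, proteostasis genes and markers were chosen with earlier results of these data known. All listed genes, HSF1, HSF2, HSPA1A, HSPA1B, HSPA5, HSPA6 and HSPA9 were named, with up to 3 called genes of each list by adjusted p and the tested genes most like or unlike the mean profile. HSPA1L, KRT8 and KRT18 were named after their values were seen. Alternatives covered the filter, the rows, the scaling, the variance prior, array weights, the time and erlotinib terms and the arrays used. Arrays carry no read depth, and their number limits the precision.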

Additional observations from a re-analysis of the deposited data

Results flagged for a closer look

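In the groups of 4 arrays, 14 in all for the 7 heat shock genes, 5 had an array whose gap to the nearest other exceeded Dixon's critical value for 4 values, 0.829. Chance flags about 5% of such groups, and the arrays of a group differ in time. On the combination 6 h array, the one whose overall values stand apart, DNAJA1 was at 7.92 (the other combination arrays 7.85 to 7.86), HSP90AB1 at 9.33 (others 9.13 to 9.14), BAG3 at 6.65 (others 6.99 to 7.02) and HSPB1 at 12.13 (others 12.27 to 12.29). HSP90AB1 was at 8.90 on the erlotinib 48 h array, where the other erlotinib arrays held 9.24 to 9.31. Their part in the results was not tested beyond the fits that leave these arrays out.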

How the results depend on the processing

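DNAJB1 kept its call for quinacrine present against absent in all 23 alternatives (-0.69 to -0.53, limma adjusted p 0.00076 to 0.0462). Without the untreated array that fit is the same as combination against erlotinib with no time term (limma adjusted p = 0.0462 in both). The calls of the 2 comparisons are thus not independent. The count of 2 heat shock genes for quinacrine present against absent was 1 with no filter, with median centring and with cyclic loess, and 1 to 2 when 1 array was left out. The count of 1 for combination against erlotinib was 0 with no filter, without both the combination 6 h array and the erlotinib 12 h array, with the 6, 12 and 24 h arrays only, with the arrays of the 2 arms alone and with all rows of mean at least 5 (a fit added after the data were seen), and 0 to 1 when 1 array was left out. The count of 0 for quinacrine against erlotinib was 1 with a mean of at least 6, median centring, cyclic loess or array weights, and 0 to 1 when 1 array was left out. Against untreated cells, array weights gave 1 for quinacrine and 4 for the combination in place of 0; these weights did not reach their convergence tolerance in every fit. Values that changed sign were the DNAJB1 difference of combination against quinacrine (0.05 without combination 6 h and erlotinib 12 h, -0.14 to 0.05 leaving out 1 array), its trend difference (-0.05 with array weights, -0.09 without those 2 arrays, -0.09 to 0.28 leaving out 1 array) and HSP90AB1 with against without quinacrine (-0.14 to 0.01 leaving out 1 array). The causes were not tested. Over all genes, 83 rose and 129 fell for combination against erlotinib, but 23 and 28 with no filter, 223 and 216 with median centring, 225 and 236 with cyclic loess and 3 and 3 with the 2 arms alone. With quinacrine 226 rose and 342 fell, against 147 and 237 with no filter, 362 and 371 with median centring, 374 and 440 with cyclic loess and 812 and 663 with array weights. Of 862 single-gene values, 762 kept their direction and side of the threshold, and 7 turned sign. The comparisons with untreated cells could not be run without the untreated array. No paired analysis was possible because the labels give times and no replicate numbers; the fits of the treated arms already match arrays by time. With 1 array a condition, a missed threshold does not show that levels were alike.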
